A study of Mus musculus with 8 samples.

Results

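The 8 genes described encode high-mobility-group chromatin proteins: Hmgb1, Hmgb2, Hmgb3, Hmgn1, Hmgn2, Hmgn3, Hmgn5 and Hmga1. They were chosen by family name out of 31053 genes in each count table, with earlier results of these data known. The study itself lists Hmgn2 among its markers of neural stem cells in these data. RNA was measured by single-cell RNA sequencing of the ipsilateral dentate gyrus of Nestin-GFP male mice of 8 weeks, in cells sorted for GFP 15 days after surgery. The Control group had a sham craniotomy and the TBI group a unilateral controlled cortical impact. Both groups carry the same transgene, in which Nestin regulatory sequence drives GFP, so every library holds only cells that passed a GFP gate, and the gate also held glia and vascular cells. The labels list 4 animals per condition, a number that differs from the one in the study's methods. By those methods cell preparations were combined within each condition ahead of the sort, so each condition is 1 library.

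The Control library held 3086 barcodes and 24723113 UMIs, and the TBI library 5081 barcodes and 31543330 UMIs. A UMI marks 1 captured molecule. After filtering, 3048 Control and 5033 TBI cells remained, with a median of 6933 and 5676 UMIs, and the libraries shared 3 barcode sequences. Clusters were built without the 8 genes, and of 8081 kept cells 7832 fell into 13 populations named from fixed markers. These names say only which markers a cluster resembles. S-phase progenitors held 154 cells and had the highest level of all 12 of their markers, and mitotic progenitors held 186 cells and had the highest level of 10 of 12. RG-like progenitors (369 cells) had the highest level of 8 of 12 markers, among them Neurog2, but their Eomes level, 704 counts per 1000000 UMIs (CPM), was close to the 676 of early neuroblast-like cells, for which Eomes was a marker. In RG-like progenitors the marker Mcm2 was at 150 CPM, against 156 in S-phase and 34.3 in mitotic progenitors. Pcna was at 200, against 297 and 41.8, and Mki67 at 78.2, against 1020 and 767. Cycling is used below as a name for S-phase and mitotic progenitors only. It does not place RG-like progenitors outside the cell cycle. Early and late neuroblast-like cells each had the highest level of 5 of 8 markers. In late neuroblast-like cells the marker Fxyd7 was near 0, and in Reln neuron-like cells Gad2 was at 0 and Gad1 at 4.76 CPM. A cluster of 30 cells led by Spp1, Dcn and Lum was counted with the mural-like cells. With 1 library per condition no difference could be set against a spread between replicates. The 95% intervals below are exact (Poisson for a level, conditional binomial for a ratio, Clopper-Pearson for a share) and cover counting error only.

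High-mobility-group proteins are small, abundant non-histone proteins that bind DNA or nucleosomes with little sequence preference. HMGB proteins carry a pair of HMG-box domains and an acidic tail and bend DNA, HMGN proteins bind the nucleosome core and counteract linker histones, and HMGA proteins bind AT-rich DNA through AT-hooks. Genes of the HMGB family are known as being active in proliferating neural progenitors, and Hmgb1 protein is also known as an extracellular danger signal after tissue injury.

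By the GENCODE annotation of GRCm38, Hmgb1 lies at chr5:149046702-149184489 on the minus strand, Hmgb2 at chr8:57511907-57515999 on the plus strand and Hmgb3 at chrX:71555918-71560676 on the plus strand. Hmgn1 lies at chr16:96120618-96127729, Hmgn2 at chr4:133964738-133968650, Hmgn3 at chr9:83109948-83146685 and Hmgn5 at chrX:109004534-109013404, all on the minus strand, and Hmga1 at chr17:27556497-27563674 on the plus strand. All 8 are annotated as protein-coding, and the longest coding sequences run from 90 codons for Hmgn2 to 406 for Hmgn5. The annotation holds 13 pseudogenes named after Hmgb1, and reads that map equally well to a parent and a copy could be lost or split, so the Hmgb1 level is uncertain to that extent.

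The promoter windows of 4 members are shown, those of the HMGB genes, whose falls along the neuronal series spanned the widest range, and that of Hmgn2, which fell most among the HMGN genes. Each runs from 250 bases before to 50 bases after the RefSeq start and is written from its own strand. Capitals mark CCAAT (or ATTGG on the other strand) and TTTGAA (or TTCAAA on the other strand), which do not overlap each other here.
Hmgb2 (GRCm38.p6, chr8:57511593-57511892, plus strand): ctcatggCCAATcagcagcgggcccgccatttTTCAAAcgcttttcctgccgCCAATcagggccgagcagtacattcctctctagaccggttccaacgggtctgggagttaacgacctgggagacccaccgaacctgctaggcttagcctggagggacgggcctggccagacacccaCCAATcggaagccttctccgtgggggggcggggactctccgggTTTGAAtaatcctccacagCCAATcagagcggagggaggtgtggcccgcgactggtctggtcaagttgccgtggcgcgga
Hmgb3 (GRCm38.p6, chrX:71555667-71555966, plus strand): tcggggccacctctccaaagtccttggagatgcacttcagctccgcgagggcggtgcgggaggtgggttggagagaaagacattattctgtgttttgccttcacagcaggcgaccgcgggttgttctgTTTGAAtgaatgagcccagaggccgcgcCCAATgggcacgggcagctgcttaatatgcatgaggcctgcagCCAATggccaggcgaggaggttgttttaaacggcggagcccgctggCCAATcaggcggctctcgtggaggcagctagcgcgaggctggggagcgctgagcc
Hmgb1 (GRCm38.p6, chr5:149053008-149053307, minus strand): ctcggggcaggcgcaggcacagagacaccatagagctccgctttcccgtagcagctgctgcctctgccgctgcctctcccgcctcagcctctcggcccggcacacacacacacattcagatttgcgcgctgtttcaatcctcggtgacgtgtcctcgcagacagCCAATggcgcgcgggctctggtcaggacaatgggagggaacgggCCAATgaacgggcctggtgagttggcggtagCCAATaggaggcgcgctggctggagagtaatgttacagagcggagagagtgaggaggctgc
Hmgn2 (GRCm38.p6, chr4:133967942-133968241, minus strand): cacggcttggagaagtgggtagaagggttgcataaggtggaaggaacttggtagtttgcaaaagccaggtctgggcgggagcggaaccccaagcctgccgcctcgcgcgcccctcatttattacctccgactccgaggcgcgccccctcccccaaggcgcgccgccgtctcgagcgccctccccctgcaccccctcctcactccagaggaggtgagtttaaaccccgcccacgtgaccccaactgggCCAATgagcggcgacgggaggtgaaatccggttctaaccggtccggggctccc
The Hmgb2 window held 4 copies of CCAAT, beginning 243, 198, 73 and 11 bases before the start, and 2 of TTTGAA, beginning 218 and 30 bases before it. In the Hmgb3 window there were 3 copies of CCAAT and 1 of TTTGAA. Hmgb1 had 3 copies of CCAAT in the window shown and 0 in its second window, Hmgn1 and Hmgn5 had 2 each, Hmgn2 had 1 and Hmga1 had 0 in both of its windows. Of 32851 promoter windows of the same length, 37.4% held CCAAT on either strand, 11.7% held 2 or more copies, 3.37% held 3 or more, and 17.9% held TTTGAA. Windows with 2 or more CCAAT together with TTTGAA made up 2.09% of all, and those of Hmgb2 and Hmgb3 were among them. TTTCCCGC and TTTGGCGC, searched on both strands, were in no window of the members and in 1.07% and 0.514% of all windows. A match is a run of letters and not a bound site. Hmgn3 was not in the promoter table.

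Among HMGB genes, Hmgb2 had the steepest profile. It is an HMG-box protein known for its link to proliferation. Its level in CPM, with Malat1 left out of the total, was 4451 in S-phase progenitors of the Control library and 3884 in those of the TBI library, and 5582 and 5135 in mitotic progenitors. The cycling populations were the highest of all 13. RG-like progenitors had 1126 in Control and 972 in TBI. Early neuroblast-like cells had 377 and 332, and late neuroblast-like cells 103 and 90.8. From mitotic progenitors to late neuroblast-like cells each population was lower than the one before it in both libraries. Outside the series, microglia-like cells held 158 in Control and 270 in TBI, endothelial-like cells 153 and 130, stem-like astroglia 144 and 76.8, and mural-like cells 89.4 and 106. OPC-like cells had 45.5 and 95.8, Reln neuron-like cells 30.8 and 49.7, and astrocyte-like cells 39.5 and 40.0. Oligodendrocyte-like cells, at 30.2 and 18.6, were the lowest in both libraries. In Control their interval overlapped those of Reln neuron-like, astrocyte-like and OPC-like cells. Mitotic progenitors exceeded oligodendrocyte-like cells 185-fold in Control and 276-fold in TBI. In Control 67 of the 171 oligodendrocyte-like UMIs lay in 1 cell, and without the highest such cell of each library the folds were 302 and 297.

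Hmgb1, the HMGB gene found in nearly every cell type, had UMIs in every population. Mitotic progenitors had 3368 CPM in Control and 3356 in TBI, and S-phase progenitors 3197 and 2991. RG-like progenitors held 1779 and 1660, early neuroblast-like cells 1263 and 1227, and late neuroblast-like cells 895 and 867. The levels in OPC-like, oligodendrocyte-like, endothelial-like, mural-like, Reln neuron-like cells and stem-like astroglia lay between 611 and 868 in both libraries, a range in which neighbours mostly overlapped in their intervals. Astrocyte-like cells were lower at 343 and 388, and microglia-like cells lowest at 327 and 321, with intervals of these populations that overlapped in both libraries. The span from the highest to the lowest population was 10.3-fold in Control and 10.5-fold in TBI, narrower than that of Hmgb2.

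Hmgb3, the X-linked HMGB gene, had its 5 highest levels in the progenitors and neuroblast-like cells of both libraries. Mitotic progenitors had 785 CPM in Control and 891 in TBI, S-phase progenitors 560 and 628, RG-like progenitors 450 and 447, early neuroblast-like cells 335 and 366, and late neuroblast-like cells 307 and 338. Measured against S-phase and mitotic progenitors together, late neuroblast-like cells kept more of the level of Hmgb3 than of any other member that passed 100 UMIs. Against mitotic progenitors alone they kept more of the level of Hmgn1. In OPC-like cells the level was 81.8 and 120, and in all other populations it was at or under 64.6. Microglia-like cells had 1 UMI in Control and 2 in TBI, which is within what a count of 0 would allow, 3 UMIs.

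**Figure D1:**
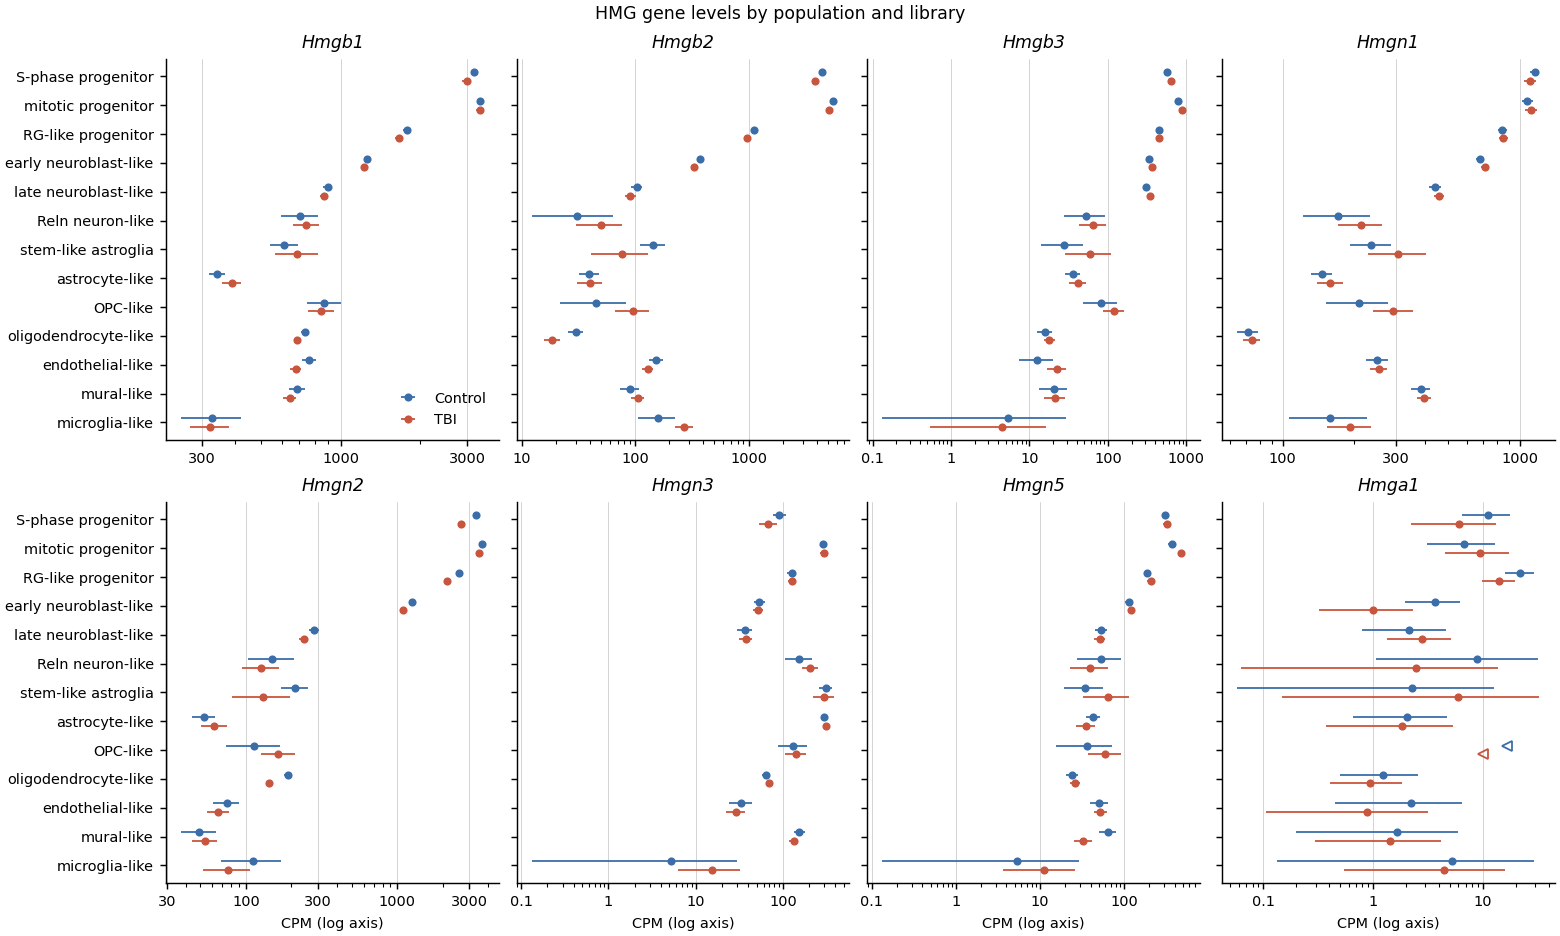
Level of each of the 8 genes (CPM, log axes that differ between panels) in 13 populations of the Control (blue) and TBI (red) libraries, with exact 95% Poisson intervals; open triangles mark the upper bound where no UMI was counted. Hmgb1, Hmgb2, Hmgb3, Hmgn1, Hmgn2 and Hmgn5 are highest in S-phase or mitotic progenitors, Hmgn3 is high in astroglial populations and in mitotic progenitors, and Hmga1 stays at or under 22.0.

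Hmgn2, a nucleosome-binding protein of the HMGN family, resembled Hmgb2 along the neuronal series. Its level was 3623 CPM (Control) and 3482 CPM (TBI) in mitotic progenitors, 3312 and 2654 in S-phase progenitors, and 2553 and 2144 in RG-like progenitors. Early neuroblast-like cells had 1251 and 1091, and late neuroblast-like cells 282 and 241. For Hmgb2 mitotic progenitors stood 4.96-fold and 5.29-fold above RG-like progenitors. For Hmgn2 the RG-like level stayed nearer to that of S-phase and mitotic progenitors, the latter being 1.42-fold and 1.62-fold higher. Among the other populations, oligodendrocyte-like cells had 190 in Control and 143 in TBI and stem-like astroglia 211 and 130, against 53.0 and 61.9 in astrocyte-like cells and 49.2 and 53.4 in mural-like cells. Inside the early neuroblast-like population, Hmgn2 was at 1583 in the cluster led by Tac2 and Eomes and at 606 in the cluster led by Ebf1 and Tubb3 (both libraries together), and Hmgb2 was at 474 and 191 in the same clusters.

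Hmgn1, a close relative of Hmgn2, declined less. S-phase progenitors had 1157 CPM in Control and 1104 in TBI, mitotic progenitors 1079 and 1116, RG-like progenitors 846 and 852, early neuroblast-like cells 681 and 713, and late neuroblast-like cells 439 and 456. S-phase and mitotic progenitors did not differ beyond counting error in either library. Mural-like cells had 382 and 395, endothelial-like cells 251 and 254, astrocyte-like cells 146 and 159, and oligodendrocyte-like cells 71.2 and 74.1, the lowest level of this gene. Hmgn5, the X-linked HMGN gene with a long acidic tail, had 370 (Control) and 483 (TBI) in mitotic progenitors, and 311 and 326 in S-phase progenitors. It fell to 189 and 207 in RG-like progenitors, 115 and 120 in early neuroblast-like cells and 53.3 and 51.5 in late neuroblast-like cells, and it was at 64.9 or less in every other population.

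Hmgn3 departed from the other HMGN genes. Its 3 highest levels lay close together, at 309 CPM in Control and 295 in TBI in stem-like astroglia, 292 and 312 in astrocyte-like cells and 292 and 296 in mitotic progenitors. S-phase progenitors 91.5 and 68.3, RG-like progenitors 126 and 128, early neuroblast-like cells 53.4 and 51.9, and late neuroblast-like cells 36.5 and 37.6. Mitotic progenitors exceeded S-phase progenitors 3.19-fold in Control (95% interval 2.62 to 3.89) and 4.33-fold in TBI (3.32 to 5.72), a gap that Hmgb1, Hmgb2, Hmgb3, Hmgn1, Hmgn2 and Hmgn5 did not have, with folds between 0.933 and 1.481. Hmgn3 was also the member for which stem-like astroglia exceeded RG-like progenitors, whose level was 0.408 of theirs in Control and 0.433 in TBI. Reln neuron-like cells had 154 and 206, and mural-like cells 154 and 134. The 4 clusters of astrocyte-like cells lay between 244 and 426 for both libraries together, so the astroglial level was not carried by 1 cluster.

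Hmga1, an AT-hook protein typical of embryonic tissue, had 200 UMIs in all kept cells, against 5039 or more for every other member. Its highest level was in RG-like progenitors, 22.0 CPM in Control (16.04 to 29.4) and 14.0 in TBI (9.77 to 19.5). S-phase progenitors had 11.1 and 6.02, mitotic progenitors 6.75 and 9.47, and OPC-like cells had no UMI, which allows up to 3. These values rest on 45 UMIs at most. Hmga1b, a separate gene on chromosome 11 of the same coding length, had 25 UMIs, and a read that could come from either gene may be lost, so the Hmga1 level is uncertain.

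The question of how far the members change between the ends of the neuronal lineage was asked by setting S-phase and mitotic progenitors against late neuroblast-like cells in each library. Hmgb2 differed most, 48.3-fold in Control (43.0 to 54.4) and 49.9-fold in TBI (44.6 to 55.9). Hmgn2 followed with 12.3-fold and 12.8-fold, then Hmgn5 with 6.34-fold and 7.90-fold and Hmgn3 with 5.06-fold and 4.93-fold. Hmgb1 differed 3.66-fold and 3.67-fold, Hmgn1 2.55-fold and 2.43-fold and Hmgb3 2.17-fold and 2.26-fold. In both libraries 7 of 7 members with at least 100 UMIs were 1.5-fold or more higher in the cycling cells, where 19.7% of 7461 genes in Control and 18.3% of 7354 in TBI passed the same mark. The 8th member, Hmga1, had 32 UMIs in Control and 26 in TBI in these populations and was 4.23-fold (1.70 to 12.6) and 2.80-fold (1.19 to 6.90) higher. The median fold over all genes tested was 0.938 and 0.947. The summed level of the 8 genes moved from 13090 and 11663 CPM in S-phase and 15104 and 14768 in mitotic progenitors to 2117 and 2085 in late neuroblast-like cells.

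**Figure D2:**
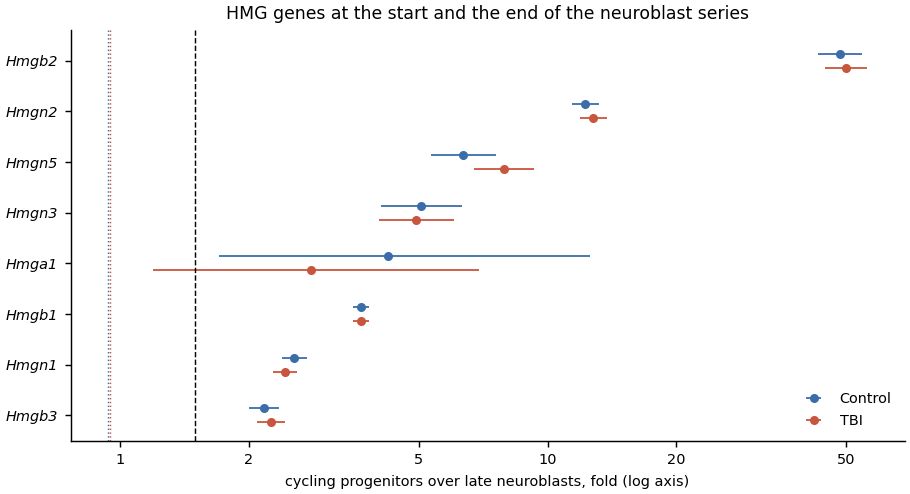
Fold of cycling progenitors (S-phase and mitotic) over late neuroblast-like cells (log axis) for the 8 genes in the Control (blue) and TBI (red) libraries, with exact 95% conditional binomial intervals; the dashed line marks 1.5-fold and the dotted lines the median of all genes tested. Hmgb2 stands at 48.3 and 49.9, Hmgn2 at 12.3 and 12.8, and the intervals of the libraries overlap for every gene.

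Genes related to the members by domain or by role were taken as fixed lists, also chosen with earlier results of these data known. Of 7 linker histone genes, whose proteins compete with HMGN proteins for nucleosomes, 7 were 1.5-fold or more higher in cycling cells in each library, with a median of 6.59-fold in Control and 7.11-fold in TBI. Hist1h1b had the largest fold, 739 and 411, against late neuroblast-like levels of 1.07 and 1.67 CPM. It was also a marker used to name S-phase progenitors. Its fold, its place among the 7 and its order between the cycling populations are therefore not independent of that naming. H1f0, a replacement linker histone, was 1.99-fold and 2.45-fold higher, Hist1h1c 2.43-fold and 2.38-fold and H1fx 4.56-fold and 4.18-fold. Hist1h1b was 1379 in S-phase and 83.7 in mitotic progenitors (both libraries together), the reverse order of Hmgb2. Hist1h1a, Hist1h1d and Hist1h1e likewise had their highest level in S-phase progenitors, at 156, 120 and 613.
Of 21 other genes with an HMG box or an HMG name, 14 in Control and 13 in TBI had 100 UMIs, and 5 and 5 of these were 1.5-fold or more higher in cycling cells, with medians of 1.249 and 1.225. Tox3, an HMG-box factor, was 18.2-fold and 11.2-fold higher, and Ssrp1, the HMG-box subunit of the histone chaperone FACT, was 2.52-fold and 2.00-fold higher. Hmg20b, a subunit of an LSD1 corepressor complex, was 2.70-fold and 2.18-fold higher. Of the chromatin remodelling subunits, Pbrm1 was 1.36-fold higher in Control and, past the mark, 1.59-fold higher in TBI, and Smarce1 stood at 0.886 and 0.967. Ubtf of ribosomal DNA transcription had 1.18 and 1.23. Bbx had 1.27 and 1.32, Tox4 0.746 and 0.829, and the Wnt factor Tcf7l2 0.956 and 0.600. Lef1, also a Wnt factor, was 4.46-fold higher in Control and, with 83 UMIs, under the count limit in TBI, and its highest level was 519 CPM in endothelial-like cells.

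Because a 3' UMI count is not set by gene length, the make-up of each family was described as shares of its UMIs, which compare populations and not the efficiency with which genes are captured. Hmgb2 supplied 53.3% of HMGB UMIs in S-phase and 56.2% in mitotic progenitors for both libraries together, 32.5% in RG-like progenitors, 18.0% in early and 7.40% in late neuroblast-like cells. Over the same series the share of Hmgb1 went from 39.3% and 35.1% to 67.6%, and that of Hmgb3 from 7.40% and 8.68% to 25.0%. In oligodendrocyte-like cells Hmgb1 supplied 94.6%. Among HMGN UMIs, Hmgn2 held 66.5%, 66.3% and 66.5% in S-phase, mitotic and RG-like progenitors, 57.1% in early and 32.5% in late neuroblast-like cells, where Hmgn1 held 56.3%. Hmgn3 held 54.8% in astrocyte-like cells and 38.5% in stem-like astroglia but 1.79% in S-phase progenitors.

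**Figure D3:**
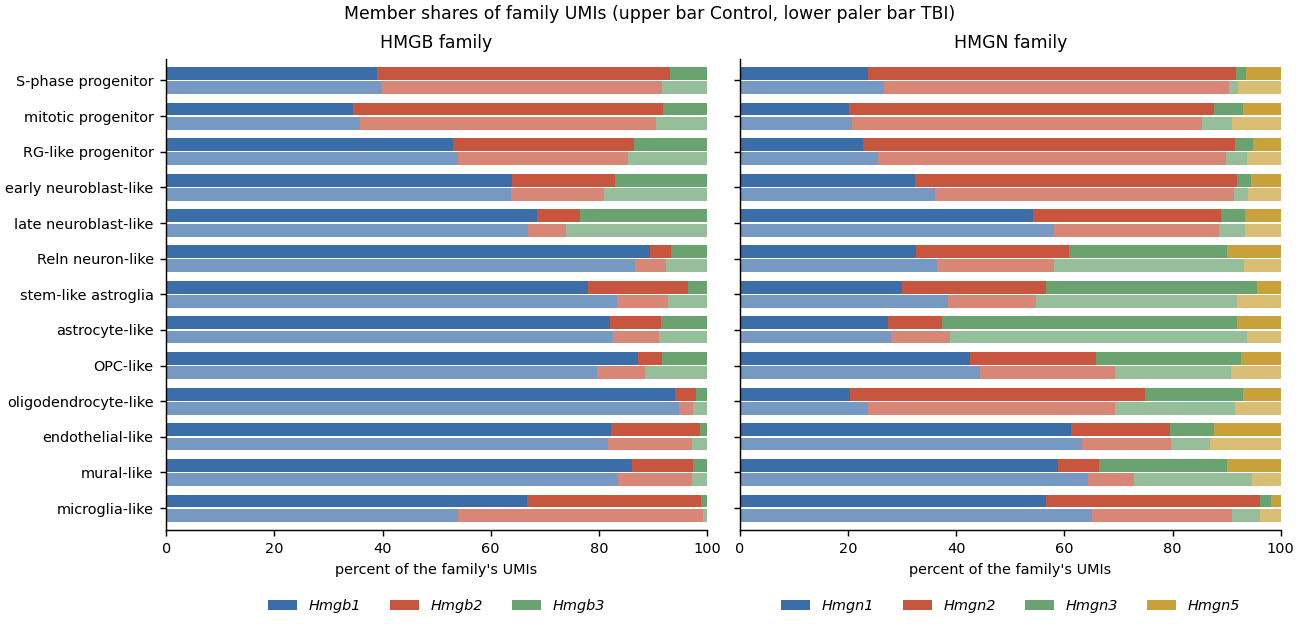
Share of each member in the UMIs of the HMGB family (left) and the HMGN family (right), in percent, for 13 populations, with the Control library as the upper and the TBI library as the lower, paler bar. Hmgb2 fills most of the HMGB bar in S-phase (53.3%) and mitotic progenitors (56.2%) and little in late neuroblast-like cells (7.40%), and Hmgn3 fills most of the HMGN bar in astrocyte-like cells (54.8%). The percentages in this caption are for both libraries together.

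Single cells were compared after drawing 2000 UMIs from each, which left out shallower cells, 561 of 1426 astrocyte-like cells among them. A Hmgb2 UMI was then found in 100% of 153 S-phase progenitors, 99.5% of 184 mitotic progenitors, 77.0% of 369 RG-like progenitors (72.3 to 81.2), 41.7% of 860 early neuroblast-like cells (38.4 to 45.1) and 14.8% of 799 late neuroblast-like cells (12.4 to 17.4). Oligodendrocyte-like cells, the population with the lowest level, gave 3.40% (2.54 to 4.45) at a median depth of 9170 UMIs before drawing, against 8216 in late neuroblast-like cells. Their share was taken as a background for comparison, and whether these UMIs came from free RNA was not tested. Reln neuron-like cells, at 3.49%, were at that background. Without drawing, the shares were 96.5% in RG-like progenitors, 44.1% in late neuroblast-like and 12.4% in oligodendrocyte-like cells. Hmgn3 UMIs were in 49.1% of stem-like astroglia, 45.1% of astrocyte-like cells and 45.1% of mitotic progenitors but in 17.6% of S-phase progenitors and 7.51% of late neuroblast-like cells, with 2.08% in microglia-like cells as background. Hmgb1 was in 42.7% (microglia-like) to 99.5% (mitotic) of cells.

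Mki67 marks cycling cells, and it had a part in naming S-phase and mitotic progenitors, so it was read only within populations. Among 2000 drawn UMIs a cycling cell can hold no Mki67 UMI, so cells without one are not shown to be outside the cycle. In S-phase progenitors the 66 Control cells with a Mki67 UMI had a mean of 8.24 Hmgb2 UMIs per 2000 and the 14 without had 8.57, and in TBI the 55 with had 8.38 and the 18 without 7.67. In mitotic progenitors of the Control library, the 54 cells with a Mki67 UMI had a mean of 12.7 and the 30 without had 8.97, and in TBI the 66 with had 10.3 and the 34 without 8.44. In RG-like progenitors the 19 Control cells with Mki67 had 1.84 and the 128 without 2.18, but in TBI the 19 with had 3.32 and the 203 without 1.82, so the libraries went in opposite directions. Early neuroblast-like cells with Mki67, 10 in Control and 13 in TBI, had 1.70 and 1.92 Hmgb2 UMIs against 0.659 and 0.634 in those without, and 4.50 and 3.54 Hmgn2 UMIs against 2.34 and 2.07. For Hmgn2 the order was the other way in both cycling populations, where the mean of cells with Mki67 was 0.835 of that of cells without in Control and 0.918 in TBI (S-phase) and 0.925 and 0.937 (mitotic), and RG-like progenitors had 1.08 and 1.01. The means of cells with Mki67 rest on 10 to 19 cells each in RG-like progenitors and early neuroblast-like cells, and on 2 in each library in late neuroblast-like cells, too few to describe.

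For each member, the 3 genes with the most similar levels over 26 points (13 populations in each library, log2 of CPM plus 10) were taken from 10099 genes. The points share their libraries and cells. For Hmgb2 these were Ddx39 (Pearson r = 0.968), Pmf1 (0.947) and Gm10282 (0.937). Hmgn2 was nearest to Insm1 (0.965), Neurog2 (0.962) and Ezh2 (0.949), Hmgb3 to Nudt21 (0.986), Cenpv (0.965) and Thoc7 (0.962), and Hmgb1 to Hdgf (0.953), Ran (0.951) and Tmpo (0.949). Hmgn5 was nearest to H2afv (0.971), Hdgf (0.960) and Smc4 (0.945), and Hmgn1 to Odc1 (0.946), H2afy (0.932) and Dynlt1f (0.930). Hmgn3 had no such near neighbour, Hspa4l (0.853), Agbl3 (0.849) and Cc2d2a (0.844) being the nearest, and Hmga1, with few UMIs, had Chek1 (0.816), Ung (0.798) and Hells (0.795). Between members, r was 0.94 for Hmgb1 with Hmgn5 and 0.91 for Hmgb1 with Hmgn2, but 0.37 or less for Hmgn3 with each of the others.

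The effect of injury was asked by dividing the TBI by the Control level in each population. Of 104 pairs of a member and a population, 73 had at least 100 UMIs, and 4 of these differed 1.5-fold or more, 1 higher and 3 lower in TBI. These were Hmgn2 in stem-like astroglia, Hmgb2 in oligodendrocyte-like cells, Hmgn5 in mural-like cells and Hmgb2 in microglia-like cells. Among all genes with 100 UMIs, 2.95% passed the same fold in S-phase progenitors, 4.22% in mitotic, 2.5% in RG-like progenitors, 1.98% in early neuroblast-like, 2.18% in late neuroblast-like, 4.72% in Reln neuron-like and 2.97% in astrocyte-like cells. The shares were 10.2% in stem-like astroglia, 30.1% in OPC-like, 1.62% in oligodendrocyte-like, 2.59% in endothelial-like, 11.7% in mural-like and 9.69% in microglia-like cells. The median ratio of all genes was 0.16 (log2) in OPC-like and 0.10 in mural-like cells, and 0.06 or less in size elsewhere.

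In the progenitors and neuroblast-like cells no pair passed 1.5-fold, and the differences were small. Hmgn2 was lower in TBI in all 5 of these populations, at 0.801 of the Control level in S-phase progenitors (0.764 to 0.840), 0.961 in mitotic (0.920 to 1.00), 0.840 in RG-like progenitors (0.808 to 0.873), 0.872 in early (0.838 to 0.908) and 0.853 in late neuroblast-like cells (0.774 to 0.941). Hmgb2 was also lower in all 5, between 0.863 and 0.920, with an interval that included 1 in late neuroblast-like cells (0.749 to 1.04). Hmgb1 was below 1 in all 5 as well, between 0.933 and 0.996, but only in S-phase and RG-like progenitors did the interval leave out 1. All 5 populations come from the same 2 libraries, and no such count over all genes is given beside these. Hmgb3 went the other way in 4 of 5, from 1.09 to 1.13, with 0.994 in RG-like progenitors. Hmgn5 was 1.31-fold higher in mitotic progenitors (log2 0.39, 0.21 to 0.57). Hmgn1 was within 0.955 and 1.05. Beside these values, the summed level of 8 stress genes in the same populations was 2209 to 4877 in Control and 1858 to 3573 in TBI, lower in TBI in each, and Top2a in mitotic progenitors was 893 and 699, and their part in the differences was not tested. The intervals hold counting error only, and differences of this size cannot be told apart from the difference between 2 pools of animals.

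Stem-like astroglia had 92 Hmgn2 UMIs in 86 Control cells and 22 in 43 TBI cells, 211 and 130 CPM, a ratio of 0.617 (0.369 to 0.990). Without the cell with most UMIs in each library the ratio was 0.561 (0.318 to 0.940), but by the mean of per-cell levels it was 0.702, short of the 1.5-fold mark. Without cells of over 10% mitochondrial UMIs, 36 Control and 16 TBI cells were left, and with 72 UMIs the pair was under the count limit, at 0.398 (0.165 to 0.833). The early neuroblast markers summed to 291 and 472 CPM and the stress genes to 1660 and 1275 in these cells, and their part in the ratio was not tested. Hmgb2 in microglia-like cells had 30 UMIs in 38 Control cells and 121 in 88 TBI cells, and 39.5% and 55.7% of these cells had one. The ratio was 1.70 (1.13 to 2.63), and 1.51 (0.998 to 2.36) without the cluster of lowest UMI count, 17 Control and 27 TBI cells. The 22 markers of cycling progenitors summed to 26.4 and 26.8 CPM in these cells, 4 and 6 of them detected, against 9850 and 9414 in mitotic progenitors. Early neuroblast markers were higher in TBI, with 8 UMIs and 42.3 CPM in Control and 50 UMIs and 111 CPM in TBI. Microglia-like cells had no Mki67 UMI. The 8 stress genes summed to 25124 CPM in Control and 20924 in TBI in these cells, and the part of these 2 lists in the ratio was not tested.

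In the other 2 pairs, 1 Control cell held a large part of the UMIs. In oligodendrocyte-like cells, Hmgb2 had 171 UMIs in 568 Control cells and 160 in 1093 TBI cells, a ratio of 0.617 (0.494 to 0.770). Of the 171, 67 lay in 1 cell that was called a doublet, with 33036 UMIs in all, 945 UMIs of oligodendrocyte markers and 14 of 22 cycling markers. In TBI the highest cell, also called a doublet, had 12. Without these cells the levels were 18.5 and 17.3 CPM, and the ratio was 0.935 (0.723 to 1.21). Both cells were in the cluster with the lowest UMI count of the population, which summed the early neuroblast markers at 1475 and 2155 CPM against 107 and 149 in the whole population, and without that cluster the Hmgb2 ratio was 0.882 (0.669 to 1.17). Hmgn2, at 0.752 (0.692 to 0.817) in the same cells, was 0.753 (0.691 to 0.822) without it, and was lower in TBI in 7 of 7 clusters. These clusters are parts of the same 2 libraries, so that count is not repeated evidence, and none over all genes is given beside it. In mural-like cells, Hmgn5 had 78 UMIs in 281 Control cells, 28 of them in 1 cell, and 69 in 695 TBI cells, a ratio of 0.515 (0.367 to 0.721). By the mean of per-cell levels the ratio was 0.663, still past the 1.5-fold mark. From summed UMIs the ratio was 0.753 (0.513 to 1.11) without the highest cell of each library. The highest Control cell lay in the cluster led by Kcnj8 and Hspa1a, where it held 28 of 37 Control UMIs. Without that cluster, of which 85.8% were TBI cells, the ratio was 0.928 (0.594 to 1.45). This value also leaves out that cell, so the 2 removals are not independent. The cluster held 25360 and 29178 CPM of stress genes, and their part in the ratio was not tested.

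**Figure D4:**
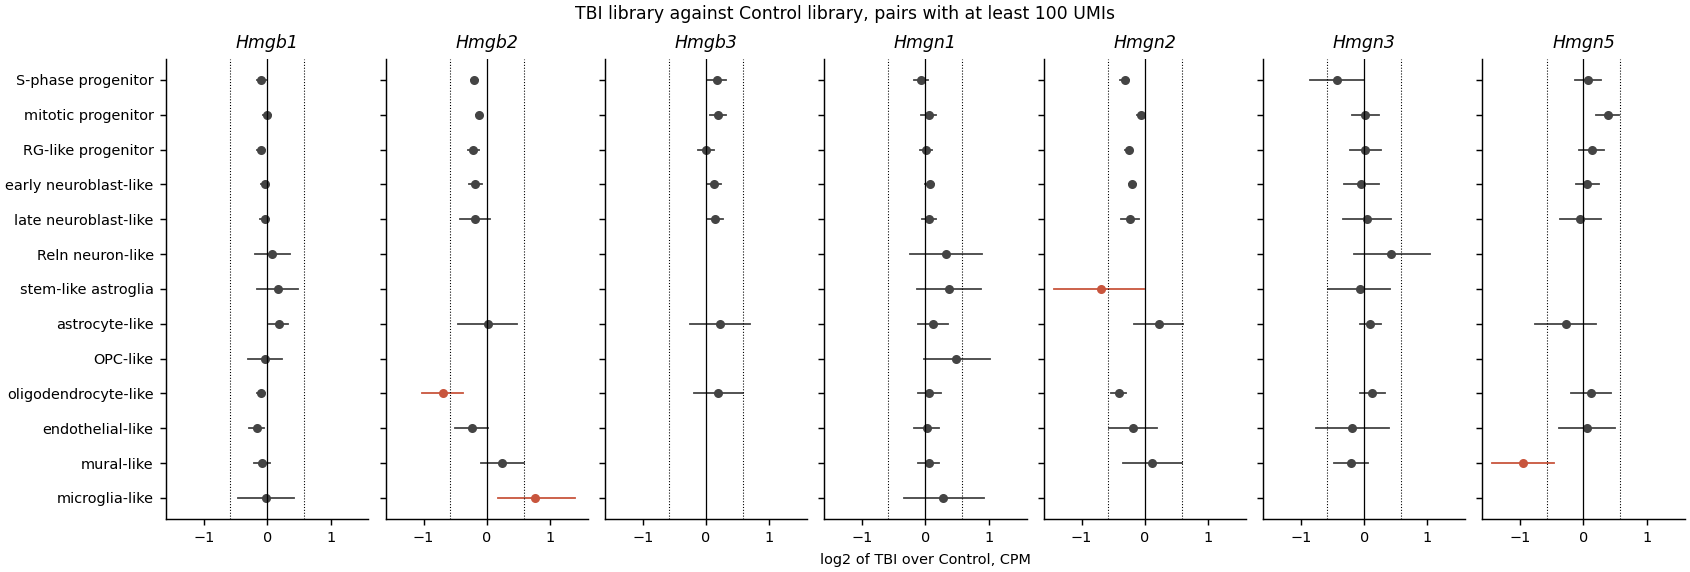
TBI level over Control level (log2 of the ratio of CPM) for the 73 pairs of a gene and a population with at least 100 UMIs, with exact 95% conditional binomial intervals; dotted lines mark 1.5-fold. Red marks the 4 pairs past 1.5-fold, Hmgn2 in stem-like astroglia (0.617), Hmgb2 in oligodendrocyte-like (0.617) and microglia-like cells (1.70) and Hmgn5 in mural-like cells (0.515). Without the highest cell of each library, those in oligodendrocyte-like and mural-like cells fell short of 1.5-fold.

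Over all 73 pairs, 23 intervals did not include a ratio of 1, 7 with TBI higher and 16 with TBI lower. Among all 61906 pairs of a gene and a population with 100 UMIs, 16.7% had such an interval, 9.04% with TBI higher and 7.7% with TBI lower. These intervals narrow with the number of UMIs, which was not matched between the members and the other genes. Hmgn1 was above 1 in 12 of 13 populations (median 1.04), with every interval including 1, and Hmgb3 in 6 of 7 (median 1.12). Hmgn2 was above 1 in 2 of 10 (median 0.863), Hmgb2 in 3 of 10 (median 0.881) and Hmgb1 in 3 of 13 (median 0.971). All populations come from the same 2 libraries, so these counts are not repeated evidence. No such count over all genes is given beside them. Hmgb1 in astrocyte-like cells was 1.13-fold higher in TBI (1.02 to 1.26) and in endothelial-like cells at 0.889 (0.821 to 0.962). Hmgn3 ran from 0.746 in S-phase progenitors to 1.34 in Reln neuron-like cells, with every interval including 1. No Hmga1 pair reached 100 UMIs.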

How the data were processed

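Single-cell RNA of GFP-sorted dentate gyrus cells was deposited as 1 table per condition. The deposited values are counts of UMIs per gene and barcode, not normalized, made by the authors with Cell Ranger 3.0.2 per the labels, on GRCm38 (mm10), for barcodes that it called cells. The tables carry no condition, and barcodes that the study lists by condition assigned them: 356 of 356 Control barcodes were in one table and 320 of 320 TBI barcodes in the other, with none crossed. No column belonged to any other sample. The sample sheet was not used.

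Cells with at least 200 genes and a log UMI count within 3 median absolute deviations were kept. Scrublet (scanpy 1.11.5) called 38 Control and 110 TBI cells doublets (2.19% in TBI), which stayed in. Clustering used Seurat 5.3.0 (R 4.3.3) after canonical correlation integration, on 2000 variable genes without Malat1 and the 8 members, with 20 components at a resolution of 3.0 and, for lineage cells, 16 components at 0.8. These clusters are a reconstruction, since the authors' own were not used here. A cluster took the name of its highest marker score under fixed conditions. At least 3 markers had to be in 10% of its cells, and its leading 10 genes could not go against the name. A cluster with UMI counts under 0.333 of the library median and no marker of its name among those 10 genes also stayed unnamed. These rules left 249 cells unnamed. No cluster was named immature granule neuron, so late neuroblast-like cells took that place in the planned contrast. Their largest cluster, of 396 cells, scored 1.61 for late neuroblast and 1.095 for immature granule neuron markers. Both Calb2 and Camk2b, a marker of immature granule neurons, were among its leading 10 genes, so the late end may hold both kinds of cell.

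Levels are summed UMIs per 1000000 (CPM) without Malat1. Ratios used genes with at least 100 UMIs. Tests were not possible with 1 library per condition, and "past" means 1.5-fold. Ratios and intervals were tested on simulated Poisson counts, the model that the intervals themselves assume. That test therefore cannot show how they behave where many UMIs lie in 1 cell. Members, markers and gene lists were chosen with earlier results of these data known. Named genes are the 8 members, related genes above 100 CPM in any population and the 3 most similar genes per member, with genes named to describe clusters besides. Genes that mark a cluster were used to name it and are no findings. Promoter letters came from RefSeq (GRCm38.p6), where 7 of 8 members matched. Protein sequences were not analysed here. Python 3.11.15, numpy 2.4.6, scipy 1.17.1 and matplotlib 3.10.9 were used. Alternatives changed the filter, mitochondrial limit (10%), doublets, clustering genes, integration, resolution, denominator, averaging, fold, count limit and drawing depth.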

Additional observations from a re-analysis of the deposited data

Results flagged for a closer look

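Hmgb2 moved past 1.5-fold in opposite directions between the libraries in 2 populations: the log2 of TBI over Control was -0.70 in oligodendrocyte-like cells and 0.77 in microglia-like cells. Each condition is 1 pooled library, so the difference between these populations was not tested. The oligodendrocyte-like value was -0.10 without the cell with most Hmgb2 UMIs in each library, and the microglia-like value was 0.81.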

How the results depend on the processing

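The count of 7 members past 1.5-fold in cycling progenitors stayed at 7 under each of the 9 alternatives tried. Members with their highest level in S-phase or mitotic progenitors numbered 6, and 7 by the mean of per-cell levels. The count of 4 pairs past the TBI and Control mark was 0 with a fold of 2, 10 with the lower of the other folds tried and 7 with a limit of 50 UMIs, and 2 without the cell with most UMIs of the member in each library, an alternative chosen after seeing the data. The other 13 alternatives, 3 of them chosen after seeing the data (each leaving out 1 cluster), gave 3 to 6 pairs. Removing cells with over 10% mitochondrial UMIs brought 4 pairs of Reln neuron-like cells past the mark, took Hmgb2 in oligodendrocyte-like cells below it and left Hmgn2 in stem-like astroglia under the count limit, with 72 UMIs. Removing doublets took Hmgb2 in oligodendrocyte-like cells below the mark too, and the mean of per-cell levels took both of these pairs below it. No called ratio changed its direction, and the ratio kept its sign in 773 of 807 recomputed TBI over Control values and 128 of 128 of cycling over late. Shares of cells with a Hmgb2 UMI depend on the number drawn, and 7 of 8 recomputed shares moved: with 1000 UMIs drawn the share was 55.8% in RG-like progenitors, 7.66% in late neuroblast-like and 1.45% in oligodendrocyte-like cells, in the same order as with 2000. No paired analysis was possible because the animals of a condition were pooled into 1 library, and no replicate could be left out for the same reason. Few cells limit Reln neuron-like, OPC-like and microglia-like values, 28 to 38 in Control, and TBI cells were shallower in most populations.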
